A study of Mus musculus with 4 samples.

Results

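The genes of MHC class I antigen presentation were examined in mesenchymal cells of the mouse hair follicle that were grown in culture, the dermal papilla cells (DPCs) and the dermal sheath cells (DSCs). The set holds 10 genes, namely the heavy chains H2-K1, H2-D1 and H2-Q4, the light chain B2m, the peptide transporter subunits Tap1 and Tap2, the loading factor Tapbp (tapasin), the immunoproteasome subunits Psmb8 and Psmb9 and the transactivator Nlrc5. Each was taken by its symbol from a table of 51826 genes, and all 10 were among the 16734 genes with a mean count of at least 10 over the libraries, which were the genes tested.

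DPCs came from the papilla in the hair bulb and DSCs from the connective tissue sheath around the follicle, both from whisker follicles. By the study's methods the donors were EGFP-transgenic C57BL/6J mice, so every group shared that transgene, while the labels give the genotype of all samples as WT and state no age. Low-passage cells (passage 3) and high-passage cells (passage 9) of each type were sequenced as 1 library per group, 4 libraries in all, with total counts between 34981284 and 47604059. No difference therefore has a replicate check, it is not said whether cultures were separate, and passage cannot be told apart from the day a library was made. Bulk RNA also does not separate fewer cells of a type from less RNA per cell.

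The labelled cell types were checked against their markers. Keratinocyte genes were close to absent, with Krt5, Krt14, Krt15 and Cdh1 at 0 in all libraries. Acta2, the smooth muscle actin of the dermal sheath, was abundant in both cell types, at 7127, 1872, 5731 and 4333 CPM (counts scaled to library size by the TMM method) in low-passage and high-passage DPCs, followed by DSCs at low and at high passage. Values of the 4 libraries are given in that order throughout. The papilla and sheath markers listed were Alpl, Ncam1, Lef1, Lepr, Sox2 and Acta2, and 5 of these 6 were tested. At low passage 3 of the 5 were higher in DPCs and 2 lower, and at high passage 2 were higher and 3 lower. Of all tested genes 50.2% and 49.0% were higher in DPCs. Sox2, named here after its values were seen, was higher in DPCs, at 45.6, 41.6, 7.10 and 3.91 CPM. Alpl, which encodes the papilla marker alkaline phosphatase, was nearly absent, with 8, 10, 23 and 6 reads. The papilla transcription factor Lef1 had 508 reads in low-passage and 2 in high-passage DPCs, beside 101 and 55 in DSCs. High-passage DPCs also stood apart in fibroblast markers, whose summed level was 17451, 6340, 25922 and 21512 CPM. The data thus gave mesenchymal profiles, but did not show every papilla marker in the libraries labelled DPCs.

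MHC class I molecules display peptides from inside the cell to CD8 T cells, and a heavy chain reaches the surface in a stable form only when it is paired with B2m and loaded with a peptide. Proteasomes cut the peptides, TAP1 and TAP2 together carry them into the endoplasmic reticulum, and tapasin holds the empty heavy chain at the transporter. NLRC5 drives transcription of much of this pathway, and interferons raise it further. The growing hair bulb is known as a site of immune privilege with low class I, which is why the pathway is of interest in cells taken from it.

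The promoter sequences of the heavy chains and of B2m are shown because these genes are known to share an enhanceosome, the SXY module, read by RFX, CREB and NF-Y factors and by NLRC5. RefSeq promoters (build GRCm38.p6) were found for 8 of the 10 genes, all but Tap2 and Nlrc5. Upstream of H2-K1, on the minus strand at chr17:34000348-34000547, capitals mark a kappaB site (GGGGATTCC), the X2 letters TGACGC and a reversed CCAAT box. Upstream of B2m, on the plus strand at chr2:122147486-122147685, they mark an interferon factor site (GAAANNGAA) and a reversed CCAAT box.
H2-K1: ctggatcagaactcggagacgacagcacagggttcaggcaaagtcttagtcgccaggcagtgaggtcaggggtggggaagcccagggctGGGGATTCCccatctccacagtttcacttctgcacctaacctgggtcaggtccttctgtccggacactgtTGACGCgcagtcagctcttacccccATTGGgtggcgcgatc
B2m: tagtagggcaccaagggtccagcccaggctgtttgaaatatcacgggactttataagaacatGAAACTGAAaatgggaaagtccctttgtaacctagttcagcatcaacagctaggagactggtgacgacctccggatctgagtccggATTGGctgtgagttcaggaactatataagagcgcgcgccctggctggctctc

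The stretch of 30 bases that ends at the reversed CCAAT box allows the genes to be compared. Here capitals mark the X2 letters and the reversed CCAAT box. H2-D1 lies at chr17:35262993-35263022, H2-Q4 at chr17:35379513-35379542 and B2m at chr2:122147609-122147638, all on the plus strand, and H2-K1 at chr17:34000359-34000388 on the minus strand.
H2-K1: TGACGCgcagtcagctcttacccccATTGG
H2-D1: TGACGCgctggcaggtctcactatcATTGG
H2-Q4: tgacttactggcagttctcacccccATTGG
B2m: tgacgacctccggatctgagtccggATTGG

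H2-D1 and H2-Q4 each had the base of H2-K1 at 23 of the 30 positions, and B2m at 13. The X2 letters were intact in H2-K1 and H2-D1 and were not found in H2-Q4 or B2m. The 9 letters of the kappaB site were found in the 250 bases upstream of H2-K1 and H2-D1, and not in those of H2-Q4 or B2m. Searched on both strands in the 250 bases upstream of 32851 RefSeq start sites, the kappaB letters were present in 0.213%, TGACGC in 6.12%, CCAAT in 33.9% and GAAANNGAA in 7.13%. Another motif, the GAS motif TTCNNNGAA, was present in 7.02% and, among the class I genes, upstream of Psmb8. These matches describe letters and do not show binding.

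The first question was how much of each component the cells transcribed. Levels between genes are compared in deposited FPKM (fragments scaled to transcript length and library size). B2m was by far the highest, at 704, 1560, 1149 and 1280 FPKM, above 99.5% to 99.9% of the tested genes of a library. Of the heavy chains, H2-D1 was highest, at 64.2, 66.8, 92.4 and 101 FPKM, and H2-K1 was at 44.2, 38.6, 62.0 and 56.5 FPKM. Both classical heavy chains thus lay above at least 89.8% of the tested genes in all libraries. H2-Q4, a nonclassical Qa-region chain, lay near the middle, at 4.08, 6.57, 7.42 and 4.28 FPKM.

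Among the genes that supply and load peptides, Tapbp was abundant and the transporter was not. Tapbp was at 32.4, 102, 50.7 and 96.2 FPKM, Tap2 at 4.46, 6.36, 7.10 and 10.1 FPKM and Tap1 at 1.89, 2.28, 3.72 and 4.01 FPKM. Tapbp exceeded H2-K1 in both high-passage libraries and lay below it in both low-passage libraries, and in high-passage DPCs it also exceeded H2-D1. The immunoproteasome subunits were the lowest of the set, with Psmb8 at 1.63, 0.629, 1.43 and 1.61 FPKM and Psmb9 at 0.553, 0.436, 0.701 and 0.350 FPKM. Nlrc5 was low as well, at 2.56, 2.96, 2.39 and 3.72 FPKM. The order B2m, H2-D1, Tap2, Tap1, Psmb8, Psmb9 therefore held from high to low in each library.

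**Figure D1:**
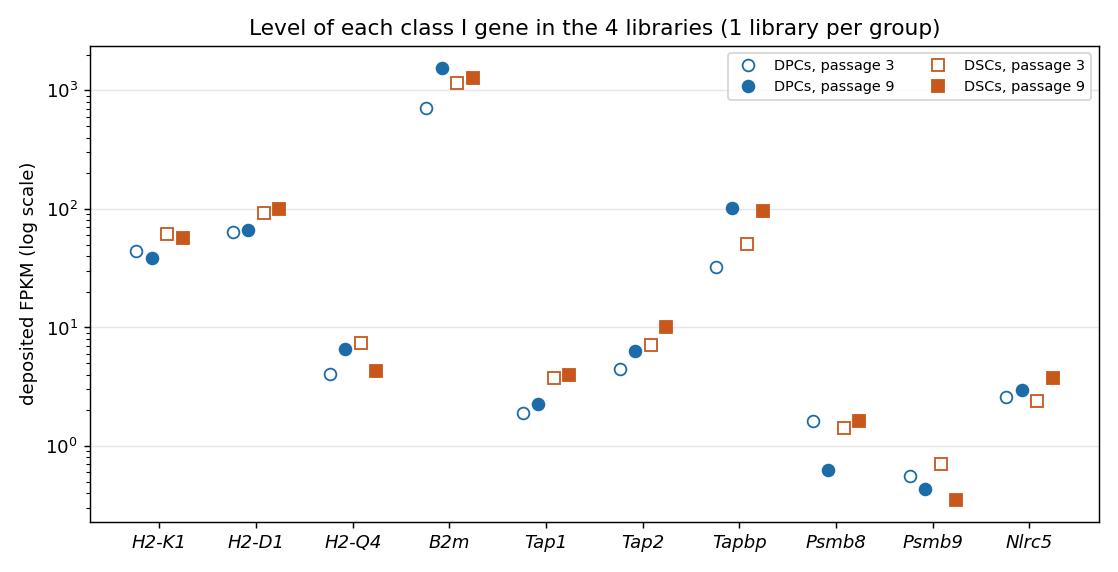
Deposited FPKM (log scale) of each class I gene in the 4 libraries, 1 point per library (open, passage 3; filled, passage 9; circles, DPCs; squares, DSCs). B2m lies highest, between 704 and 1560 FPKM, and Psmb9 lowest, between 0.350 and 0.701 FPKM. There are no error bars because each group has 1 library.

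The second question was whether expression of the pathway changed with passage. In DPCs the main differences were a B2m level 2.23-fold higher and a Tapbp level 3.12-fold higher in the high-passage library, with Psmb8 2.46-fold lower. The classical heavy chains H2-K1 and H2-D1 barely differed. In DSCs Tapbp was 1.94-fold higher at high passage and B2m 1.14-fold higher, H2-K1 and H2-D1 again differed little, and H2-Q4 was 1.69-fold lower. None of the 10 genes reached a 4-fold difference in either cell type, the size at which 9.94% of all tested genes differed in DPCs and 3.82% in DSCs. At 2-fold, 2 of the 10 were higher in high-passage DPCs, where 16.1% of all tested genes were, and 1 of the 10 was lower, where 15.0% were. In DSCs 0 of the 10 differed 2-fold, against 14.8% of all tested genes. The median log2 fold change of the 10 genes was 0.37 in DPCs and 0.16 in DSCs, beside 0.03 and 0.00 over all tested genes.

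Fold changes are given on the log2 scale from CPM, with a prior count of 2, as passage 9 over passage 3 unless cell types are named. The brackets after a fold change hold a 95% interval (exact Clopper-Pearson) of how the reads of the gene divide between both libraries. The interval compares 2 libraries, not 2 conditions, and covers counting error only. Of the 40 such intervals for the 10 genes in the 4 pairs of libraries, 33 excluded 0, and 30 did so with halved counts, a check made because even counts were in excess (61.1% to 64.0% of genes with 2 to 21 counts), as when both mates of a pair are counted.

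H2-K1, a classical heavy chain (gene ENSMUSG00000061232, chr17:33996017-34000333, minus strand), was at 75.5, 66.1, 112 and 104 CPM. Its log2 fold change with passage was -0.19 [-0.27 to -0.11] in DPCs and -0.10 [-0.16 to -0.04] in DSCs, and both DSC libraries lay above both DPC libraries. H2-D1, the other classical chain of this strain (ENSMUSG00000073411, chr17:35262730-35267499, plus strand), was at 140, 145, 219 and 239 CPM. It had a log2 fold change of 0.05 [-0.01 to 0.10] in DPCs and 0.13 [0.09 to 0.17] in DSCs, and again the DSC libraries were the higher ones.

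H2-Q4 (ENSMUSG00000035929, chr17:35379617-35385290, plus strand) differed in opposite directions in the 2 cell types. It was at 8.24, 13.1, 15.5 and 9.16 CPM, so that high-passage DPCs and low-passage DSCs were the high libraries. The log2 fold change was 0.67 [0.46 to 0.88] in DPCs and -0.76 [-0.95 to -0.58] in DSCs, a difference of 1.42 that was not tested. Reads of H2-Q4 are less certain than those of the classical chains, since 36.4% of its 50-base windows also occur in another gene, against 9.6% for H2-K1 and 12.8% for H2-D1. The antisense gene Gm11131, which covers 19.1% of its exonic bases, had 4, 2, 0 and 6 reads.

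Summed over the 3 heavy chains, expression was 112, 112, 162 and 162 FPKM, so that it was nearly the same at both passages of each cell type and higher in DSCs. H2-D1 made up 57.1%, 59.6%, 57.1% and 62.4% of that sum. H2-K1 made up 39.3%, 34.5%, 38.3% and 35.0%, and H2-Q4 the remaining 3.63%, 5.87%, 4.58% and 2.65%. The shares of the classical chains thus varied little, while that of H2-Q4 spanned 2.65% to 5.87%.

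B2m (ENSMUSG00000060802, chr2:122147686-122153083, plus strand), the light chain of all class I molecules, had 24160, 52501, 43093 and 58859 reads, or 657, 1464, 1137 and 1292 CPM. Low-passage DPCs were the low library and the other three lay within 1137 to 1464 CPM. The log2 fold change was 1.16 [1.13 to 1.18] in DPCs, higher than that of 86.7% of tested genes, and 0.19 [0.17 to 0.20] in DSCs. None of its 50-base windows was shared with another gene. As FPKM, B2m exceeded the summed heavy chains 6.26, 13.9, 7.10 and 7.92 times.

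Tapbp (ENSMUSG00000024308, chr17:33915899-33929288, plus strand) had the largest difference with passage of the set in both cell types. It had 3208, 9750, 5496 and 12816 reads, or 87.2, 272, 145 and 281 CPM, and both high-passage libraries lay above both low-passage libraries. The log2 fold change was 1.64 [1.58 to 1.70] in DPCs and 0.96 [0.91 to 1.00] in DSCs, above 92.0% and 90.9% of tested genes. Genes on the other strand, Zbtb22 among them, cover 24.9% of its exonic bases, and Gm19412 overlaps it as well. Zbtb22 was lower, at 23.9, 19.6, 27.3 and 28.1 CPM, and Gm19412 had between 31 and 57 reads.

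The transporter genes differed less. Tap2 (ENSMUSG00000024339, chr17:34203527-34216321, plus strand) was at 16.0, 21.5, 25.9 and 40.6 CPM, with a log2 fold change of 0.42 [0.27 to 0.58] in DPCs and 0.65 [0.54 to 0.76] in DSCs. The high-passage library was thus the higher one in both cell types. Tap1 (ENSMUSG00000037321, chr17:34187553-34197225, plus strand) was at 5.47, 6.86, 12.2 and 12.2 CPM, with a log2 fold change of 0.33 [0.05 to 0.60] in DPCs and 0.00 [-0.18 to 0.18] in DSCs. For both subunits the DSC library was the higher one at each passage.

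Tap1, Psmb9, Psmb8 and Tap2 lie next to each other on chromosome 17, and Tap1 and Psmb9 (ENSMUSG00000096727, chr17:34181988-34187764, minus strand) overlap at their starts on opposite strands. Psmb9 had only 26, 25, 40 and 28 reads. Its log2 fold change was -0.02 [-0.87 to 0.83] in DPCs and -0.73 [-1.53 to -0.05] in DSCs, and both intervals were wide because of the few reads.

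Psmb8 (ENSMUSG00000024338, chr17:34197721-34201454, plus strand) had 106, 41, 103 and 143 reads, or 2.88, 1.14, 2.72 and 3.14 CPM. High-passage DPCs were the single low library. The log2 fold change was -1.30 [-1.89 to -0.80] in DPCs and 0.21 [-0.17 to 0.59] in DSCs. In deposited FPKM with a pseudocount of 1 it was -0.69 in DPCs, short of 2-fold.

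**Figure D2:**
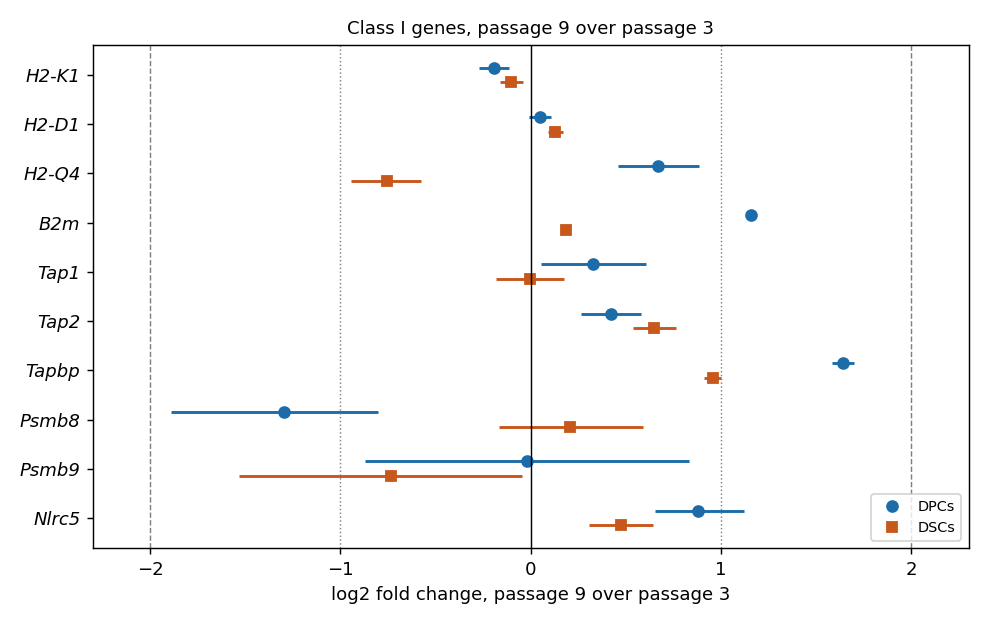
Log2 fold change of each class I gene from passage 3 to passage 9 (horizontal axis) in DPCs (circles) and DSCs (squares). Lines are 95% counting intervals between 1 library and 1 library, dotted lines mark 2-fold and dashed lines 4-fold. Tapbp is highest in both cell types, at 1.64 and 0.96, B2m is at 1.16 in DPCs, and H2-Q4 lies on opposite sides of 0.

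Psmb8 and Psmb9 replace the catalytic subunits Psmb5 and Psmb6 when immunoproteasomes are built, and Psmb10 replaces Psmb7. The ratio of each immunosubunit to its constitutive counterpart was therefore formed from FPKM. Psmb8 was 1.95%, 0.891%, 2.18% and 2.66% of Psmb5, and Psmb9 was 0.536%, 0.643%, 0.867% and 0.461% of Psmb6. Psmb10 stood higher, at 7.94%, 9.75%, 10.9% and 11.8% of Psmb7. All 3 immunosubunits were thus minor beside their counterparts in every library. The ratio of Psmb8 to Psmb5 had a log2 change with passage of -1.13 in DPCs and 0.29 in DSCs. Psmb5 has processed copies, and 54.1% of its 50-base windows occur elsewhere, so this ratio depends on how such reads were counted. Psmb5, Psmb6, Psmb7 and the activator subunit Psme3 had a median log2 fold change of -0.41 in DPCs and -0.12 in DSCs, with 4 of 4 lower at high passage in both, where 48.5% and 49.7% of all tested genes were. Psmb10 and the other immunoproteasome partners Psme1, Psme2 and Pomp lay between -0.38 and 0.54 in DPCs and between 0.04 and 0.23 in DSCs, so 0 of 4 differed 2-fold. Among all tested genes 16.1% were 2-fold higher and 15.0% lower in DPCs, and 14.8% differed 2-fold in DSCs.

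**Figure D3:**
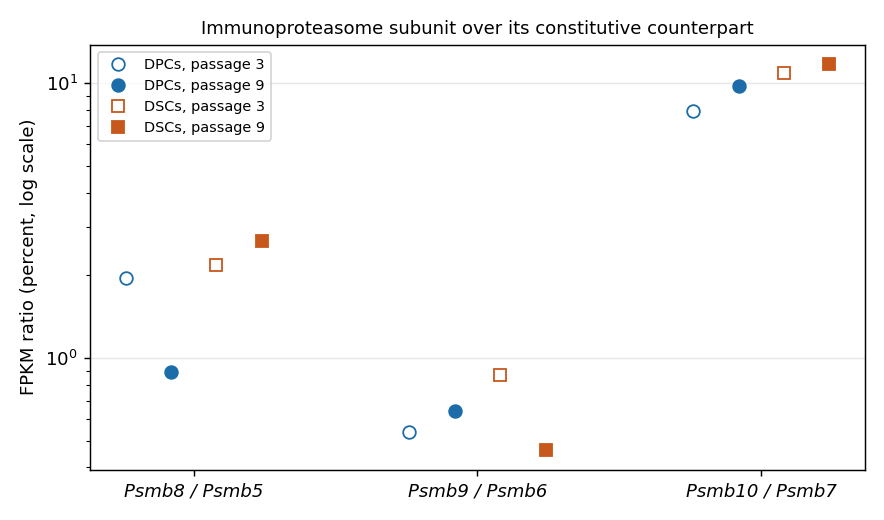
FPKM of each immunoproteasome subunit as a percent of its constitutive counterpart (log scale), 1 point per library (open, passage 3; filled, passage 9; circles, DPCs; squares, DSCs). Psmb8 over Psmb5 is lowest in high-passage DPCs, at 0.891%, and between 1.95% and 2.66% in the other libraries. No error bars are drawn, since each group has 1 library.

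All tested genes were fitted with an additive model of passage and cell type in edgeR (quasi-likelihood test, p adjusted by Benjamini-Hochberg). Its 1 residual degree of freedom measures how far DPCs and DSCs responded alike to passage, not the spread of replicates. For passage, 0 genes passed an adjusted p of 0.05, where the smallest was 0.10, while 2822 genes, 16.9% of those tested, had an unadjusted p under 0.05. Tapbp was the 1 of the 10 class I genes among these, with a common log2 fold change of 1.30, an unadjusted p of 0.00624 and an adjusted p of 0.193. DESeq2 called 955 genes, with Tapbp again the 1 class I gene, at an adjusted p of 0.00291. The other 9 genes had unadjusted p between 0.0676 and 0.916 in the edgeR fit.

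The third question was whether DPCs and DSCs differed in class I expression. At low passage 9 of the 10 genes were lower in DPCs, all but Psmb8, while 49.8% of all tested genes were. The median log2 difference of DPCs over DSCs was -0.71 for the class I genes and 0.00 over all tested genes. At high passage 7 of the 10 were lower in DPCs, where 51.0% of all tested genes were, and the medians were -0.57 and -0.01. None of the 10 differed 4-fold at either passage, as 4.3% of all tested genes did at passage 3 and 6.42% at passage 9. At 2-fold, Tap1 was the 1 gene lower in low-passage DPCs, against 7.86% of all tested genes, and Psmb8 the 1 gene lower in high-passage DPCs, against 11.0%. In FPKM with a pseudocount of 1 both fell short of 2-fold, with log2 differences of DPCs over DSCs of -0.71 for Tap1 and -0.68 for Psmb8. FPKM also turned Nlrc5 at passage 3 and Tapbp at passage 9, so that 8 and 6 of the 10 were then lower in DPCs.

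Both classical heavy chains were higher in DSCs by a similar factor at the 2 passages. For H2-K1 the factor was 1.48 at passage 3 and 1.57 at passage 9, with log2 differences of 0.57 [0.50 to 0.64] and 0.66 [0.58 to 0.73]. For H2-D1 it was 1.56 and 1.65, with log2 differences of 0.64 [0.59 to 0.69] and 0.72 [0.68 to 0.77]. The transporter showed the same order. Tap1 was 2.22-fold and 1.77-fold higher in DSCs, and Tap2 was 1.62-fold and 1.89-fold higher.

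B2m and Tapbp were higher in DSCs at low passage and close in both cell types at high passage, while the order for H2-Q4 turned. B2m was 1.73-fold higher in low-passage DSCs, a log2 difference of 0.79 [0.77 to 0.81], and at high passage it was 1.13-fold higher in DPCs. Tapbp was 1.66-fold higher in low-passage DSCs, with a log2 difference of 0.73 [0.67 to 0.80]. At high passage its log2 difference of 0.05 [0.01 to 0.09] changed sign when libraries were scaled by total counts or when FPKM was used, settings that moved the median of all genes by 0.10 or more. H2-Q4 was 1.88-fold higher in low-passage DSCs and 1.43-fold higher in high-passage DPCs.

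Psmb8 and Psmb9 did not share one pattern. Psmb8 differed little at low passage, with a log2 difference of DSCs over DPCs of -0.08 [-0.49 to 0.32], and was 2.67-fold higher in DSCs at high passage. For Psmb9 both intervals held 0, from -0.17 to 1.35 at passage 3 and from -1.01 to 0.66 at passage 9. A difference in Psmb9 was thus not detectable at this depth.

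For cell type, 0 genes passed an adjusted p of 0.05 in the edgeR fit, where the smallest was 0.0683, and 1381 genes, 8.25% of those tested, had an unadjusted p under 0.05. Of the 10 class I genes 4 were among these, H2-K1 (unadjusted p of 0.0377), H2-D1 (0.0317), Tap1 (0.0251) and Tap2 (0.0192). Their adjusted p in the edgeR fit lay between 0.418 and 0.541. DESeq2 called 496 genes, of which 0 were class I genes, and the same number of class I genes, 4, had an unadjusted p under 0.05. The difference between cell types in these genes thus did not pass a correction over all genes.

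**Figure D4:**
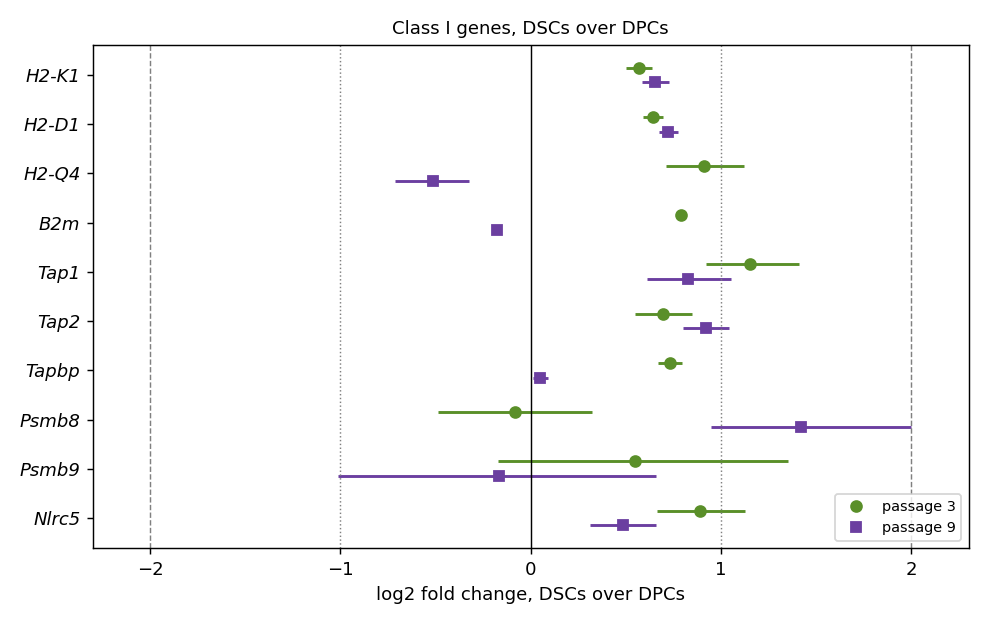
Log2 difference of DSCs over DPCs for each class I gene at passage 3 (circles) and passage 9 (squares). Lines are 95% counting intervals between 1 library and 1 library, dotted lines mark 2-fold and dashed lines 4-fold. H2-K1, H2-D1, Tap1 and Tap2 lie to the right of 0 at both passages, while B2m moves from 0.79 to -0.18.

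The transactivator Nlrc5 (ENSMUSG00000074151, chr8:94434356-94527272, plus strand) had 238, 428, 456 and 761 reads, or 6.47, 11.9, 12.0 and 16.7 CPM. Low-passage DPCs were the lowest library and high-passage DSCs the highest. The log2 fold change with passage was 0.88 [0.65 to 1.12] in DPCs and 0.47 [0.30 to 0.64] in DSCs. In deposited FPKM the change in DPCs was only 0.15 (pseudocount of 1), and at low passage the order of the cell types turned, with a log2 difference of DPCs over DSCs of -0.89 in CPM and 0.07 in FPKM. The direction for Nlrc5 between cell types at low passage therefore depends on the unit.

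Other regulators of class I transcription were taken from a list of 16 genes, all of them tested. In DPCs 3 of the 16 were 2-fold higher at high passage and 2 were 2-fold lower, and in DSCs 0 were higher and 1 was lower. Among all tested genes the shares were 16.1% and 15.0% in DPCs and 14.8% in either direction in DSCs. Irf9 and Stat2, partners in the complex that answers type I interferon, were higher at high passage. Irf9 was at 27.5, 66.4, 44.7 and 61.7 CPM and Stat2 at 28.9, 60.7, 49.1 and 78.1 CPM, with unadjusted p of 0.0302 and 0.0148 in the edgeR fit. For both of these genes low-passage DPCs were the lowest library in CPM, as for Nlrc5 and B2m. In FPKM, however, Nlrc5 was lowest in low-passage DSCs, at 2.39 against 2.56 in low-passage DPCs.

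Rfxank, a subunit of the RFX complex, was 2-fold higher in high-passage DPCs, at 10.2, 22.2, 12.7 and 14.1 CPM, whereas its partners Rfx5 and Rfxap had log2 fold changes of 0.39 and -0.13 in DPCs. Ezh2, the methyltransferase of the Polycomb complex that can silence class I genes, was lower at high passage, at 20.0, 7.42, 18.7 and 8.10 CPM (unadjusted p of 0.00469 in the edgeR fit). Irf1, an interferon-induced activator of class I genes, was highest in low-passage DPCs in CPM, at 18.4, 14.2, 6.62 and 11.9 CPM. In FPKM the order within DPCs turned, with 8.17 at low passage and 8.83 at high passage.

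**Figure D5:**
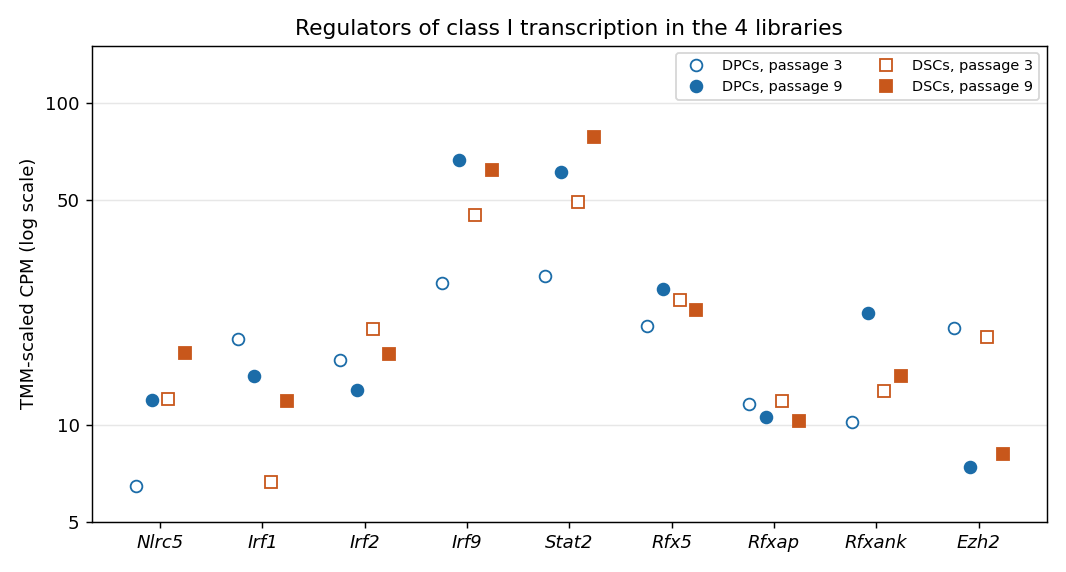
TMM-scaled CPM (log scale) of Nlrc5 and other regulators of class I transcription, 1 point per library (open, passage 3; filled, passage 9; circles, DPCs; squares, DSCs). Ezh2 is lower in both high-passage libraries, at 7.42 and 8.10 CPM, and Nlrc5, Irf9 and Stat2 are lowest in low-passage DPCs. Each group has 1 library, so no error bars are drawn.

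Of interferon genes, Ifng and Ifnb1 were looked up, and both had 0 reads in all libraries. Since 3 reads remain possible where none is counted, the limit in the shallowest library is 3 of 34981284. Receptors and kinases of the pathway were present, and 8 genes of the list of 10 were tested. Of these 0 differed 2-fold with passage, where 16.1% of all tested genes were higher and 15.0% lower in DPCs and 14.8% differed in DSCs, and their median log2 fold change was -0.60 in DPCs and -0.03 in DSCs.

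The other class I heavy chains of the mouse differed widely in level. Of 25 listed, 21 had a row in the table under that symbol, 10 were tested and 9 had 0 reads in all libraries. H2-T23, which encodes Qa-1, the ligand of the inhibitory receptor NKG2A, was at 8.24, 18.9, 17.0 and 22.0 CPM, with log2 fold changes of 1.20 in DPCs and 0.37 in DSCs. Low-passage DPCs were again the lowest library. H2-T22 was the most abundant of the list, at 42.6, 46.5, 44.5 and 61.1 CPM, but 53.5% of its 50-base windows occur in other genes. The 10 tested chains had a median log2 fold change of 0.28 in DPCs and 0.41 in DSCs, with 8 of 10 higher at high passage in each, where 51.3% and 50.2% of all tested genes were.

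Of the peptide loading partners outside the set, all 9 listed were tested. Their median log2 fold change was 0.02 in DPCs and 0.01 in DSCs, within ranges of -1.36 to 0.58 and -0.21 to 0.14. Calr, Canx and Pdia3, chaperones of the loading complex that are named after their values were seen, lay between 0.02 and 0.28 in DPCs and between 0.01 and 0.03 in DSCs. Sec61b, a subunit of the translocon, was the 1 of the 9 past 2-fold, with -1.36 in DPCs and -0.18 in DSCs. Of all tested genes 16.1% were 2-fold higher and 15.0% lower in DPCs, and 14.8% differed 2-fold in DSCs. The other translocon subunits Sec61g and Sec61a1 had -0.73 and -0.47 in DPCs, and the tapasin relative Tapbpl had 0.58.

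Of 9 class II genes listed, 5 were below the count filter. Cd74, the invariant chain, had 11, 2, 7 and 3 reads, H2-Aa had 0, 8, 0 and 0, and the class II transactivator Ciita had 0, 6, 0 and 15. The class II chain H2-Ab1 had 55, 7, 42 and 60 reads, lowest in high-passage DPCs. The peptide editing subunits H2-DMa and H2-DMb1 were higher at high passage. H2-DMb1 was at 7.40, 15.9, 11.7 and 20.2 CPM, with an unadjusted p of 0.0181 in the edgeR fit.

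Among 9 molecules with a class I fold, 6 were tested. Procr, the endothelial protein C receptor, was at 2.69, 11.0, 2.88 and 10.5 CPM, with log2 fold changes of 2.01 in DPCs and 1.86 in DSCs (unadjusted p of 0.00269 in the edgeR fit). Mr1, which presents vitamin B metabolites to MAIT cells, was at 46.7, 104, 60.3 and 88.2 CPM. Mill2 went the other way, with log2 fold changes of -1.18 and -1.42. Class I-like genes thus included members that were higher and members that were lower at high passage.

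Genes tied to immune privilege and natural killer recognition were examined beside the pathway. Of 13 immune privilege factors, 9 were tested, and their median log2 fold change was -0.54 in DPCs and -0.12 in DSCs. Cd274, the checkpoint ligand PD-L1, was at 1.52, 8.56, 3.80 and 6.35 CPM, a log2 fold change of 2.45 in DPCs and 0.73 in DSCs. Cd200, a restraining signal to myeloid cells, was at 2.34, 0.446, 5.83 and 6.61 CPM, lowest in high-passage DPCs. Igf1 was at 130.2, 89.3, 53.5 and 221 CPM. At high passage 8 of the 9 were lower in DPCs, all but Cd274, and 5 of the 9 were lower in DSCs, where 48.5% and 49.7% of all tested genes were. The NKG2D ligands Raet1d and Raet1e were lower in DPCs than in DSCs, Raet1e at 0.952, 0.502, 7.10 and 9.18 CPM.

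Reads of most listed leukocyte genes were lower at high passage, which is given here because leukocytes carry much class I. Of 12 leukocyte markers 10 were tested, and 10 of 10 were lower at high passage in DPCs and 9 of 10 in DSCs, where 48.5% and 49.7% of all tested genes were. The 1 marker that was higher in high-passage DSCs had a log2 fold change of 2.48 there. The summed level of the list was 57.4, 15.1, 60.1 and 24.3 CPM. Laptm5, a lysosomal protein of blood cells, had 736, 98, 489 and 186 reads, and the T cell gene Cd3e was at 0 in all libraries. Ptprc, the pan-leukocyte gene CD45, had 70, 22, 116 and 18 reads. The list thus lay lower in both high-passage libraries, where Tapbp was higher, and its part in the class I levels was not tested.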

How the data were processed

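RNA was measured in 4 libraries, DPCs and DSCs at passage 3 and passage 9, grouped by the labels. By the paper's methods mRNA was selected on poly-T beads and sequenced in paired ends, while a TruSeq kit is named in the labels. The authors deposited raw counts per gene, which were not normalized, and FPKM values scaled by transcript length and depth, per the file headers. The submitters' processing notes name Bowtie 0.12.2 and the builds mm8 and mm9 without a role. The counting program and its use of strand were not given in the sources used here. Gene IDs were matched to GENCODE M21 (GRCm38), where 51633 of 51826 were found and 94.1% of these had the same position. Coordinates are those of GRCm38.

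Counts of genes with a mean of at least 10 were scaled by TMM in edgeR 4.0.16 (R 4.3.3, limma 3.58.1) and fold changes taken with a prior count of 2. With 1 library per group, calls rest on size (4-fold, and 2-fold as an alternative). The additive model of cell type and passage used edgeR's quasi-likelihood test, with DESeq2 1.42.0 as an alternative. Its p-values test an effect of passage or of cell type that is common to the groups. The error they are set against measures only how the responses of the 2 cell types differ, not the spread of replicates. Fold changes were checked on simulated counts with a lower dispersion (spread beyond counting error) than the 0.106 fitted to these data. The simulation does not show how the p-values behave in these data. Intervals cover counting error only.

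One gene of the regulator list is not reported here. The class I genes and all gene lists were chosen with earlier results of these data known. All class I genes and the tested genes of the closest lists (heavy chains, proteasome, class II, regulators) could be given with values. Of other lists at most 4 genes with the largest passage change were given with values. Exceptions were Sox2, Calr, Canx and Pdia3, and genes printed with their reads to check a cell type or to show absence or abundance. Other scalings, filters, prior counts and FPKM were tried as alternatives.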

Additional observations from a re-analysis of the deposited data

Results flagged for a closer look

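H2-Q4 moved in opposite directions with passage in the 2 cell types. Its log2 fold change was 0.67 in DPCs and -0.76 in DSCs, a difference of 1.42 on the log2 scale. Each cell type had 1 library per passage, so this difference was not tested.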

How the results depend on the processing

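Of 352 alternative values for the 10 class I genes in the 4 pairs of libraries, 308 stayed within their counting interval, 39 moved beyond it and 5 reversed a difference whose interval excluded 0. Values whose interval held 0 could change sign within it, as Tap1 did with passage in DSCs (-0.03 to 0.10). For DPCs over DSCs at passage 3, Nlrc5 turned from -0.89 to 0.096 and 0.071 with FPKM at pseudocounts of 0.1 and 1. At passage 9, Tapbp turned from -0.05 to 0.05 with total counts and to 0.08 (0.079 and 0.078) with FPKM at the same pseudocounts. Total counts and FPKM moved the median of all genes between cell types by 0.08 to 0.11. With FPKM at a pseudocount of 1 the 2-fold calls of Psmb8 and Tap1 were lost, and that of Tap1 was also lost at 0.1 (-0.94). Nlrc5 with passage in DPCs ranged from 0.15 (FPKM) to 0.91. The cause of these shifts was not tested.

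Calls at 2-fold in place of 4-fold gave 3 class I genes for passage in DPCs, 1 for cell type at passage 3 and 1 at passage 9, in place of 0. Of all 16734 tested genes, 5210, 2225 and 3359 were called at 2-fold in the same comparisons. With DESeq2's Wald test 955 genes passed for passage, and for cell type 496, in place of 0. In the edgeR fit for cell type, DESeq2 size factors gave 5 genes, a mean count of at least 100 gave 13 and halved counts gave 16. The number of all genes past 4-fold ranged over the settings from 354 to 2622 for passage in DPCs, 72 to 1254 in DSCs, 96 to 1319 between cell types at passage 3 and 211 to 1805 at passage 9. No paired analysis was possible because each group has 1 library and so no replicate numbers to pair (the additive model takes cell type as a term), and for the same reason no replicate could be left out. With 25 to 143 reads, Psmb8 and Psmb9 allow only large differences to be seen.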
